A study of Mus musculus with 8 samples.

Results

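The 81 core and variant histone genes that an Illumina mouse bead array names were followed in round spermatids, the haploid germ cells that form after meiosis. They are all genes whose platform symbol begins with Hist1, Hist2, Hist3, Hist4, H1f, H2af, H2al, H2bl or H3f, or is the current name of such a gene, without H1fnt, Hils1 and the H2 genes of the major histocompatibility complex. These genes carry 120 probes, and each gene is represented by the probe with the highest mean signal. The array names 19057 genes in all. Of the 81 histone genes, 58 were detected and tested, among 9451 genes tested.

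Histones are the proteins around which DNA is wrapped in nucleosomes, with H2A, H2B, H3 and H4 in the core and H1 on the linker DNA. Replication-dependent genes lie in clusters, are transcribed mainly in S phase, and give mRNAs that usually end in a stem-loop instead of a poly(A) tail. Replication-independent genes encode variants such as H3.3 and H2A.Z outside S phase. Germ cells add histones of their own, and spermatids replace most histones, first with transition proteins and then with protamines.

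All samples were total RNA of round spermatids purified by centrifugal elutriation from mice of 8 weeks. The 4 wildtype arrays carried no transgene, 2 arrays were labelled with an shSLX RNAi construct against the X-linked Slx genes, and 2 with an shSLY RNAi construct against the Y-linked Sly genes. Strain, transgene promoter and number of lines are not given in the sources used here, nor is it said that samples came from separate animals, so p-values measure the spread between samples, which may be technical. The study asked how lowering these multicopy families alters spermatid gene expression.

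Doubts about sample identity come before any result. In the table that names samples by accession, which is used here, log2 signals of Sly were 10.52, 10.36, 10.05 and 10.04 in wildtype 1 to 4, 9.45 and 8.93 in the arrays labelled shSLX, and 10.56 and 10.26 in the arrays labelled shSLY. Sly was lower in the arrays labelled shSLX (log2 difference -0.86 ± 0.17 SE, adjusted p = 0.0377, limma) and did not pass the test in those labelled shSLY (-0.11 ± 0.21, adjusted p = 0.959, limma), which goes against the shSLY label. No probe used here bears the symbol Slx or Slxl1. By ranks, only wildtype 1 and 2 have the same names in a second deposited table. Of its other 6 columns, the 2 headed shSLX match none in the first, and the rest match a column of another name. Directions below therefore hold for arrays as labelled in the first table.

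The array labels place wildtype 2 alone on 1 slide, wildtype 1 with both arrays labelled shSLY on another, and wildtype 3 and 4 with both arrays labelled shSLX on the third. With slide fitted, the arrays labelled shSLX were in effect set against wildtype 3 and 4, and those labelled shSLY against wildtype 1. The same array labels head the columns of the second table. By ranks, the labels of wildtype 3 and 4 go there with the values of shSLY 1 and 2, and those of shSLY 1 and 2 with shSLX 1 and 2. The slides, and every fit that uses them, therefore share the doubt over names. Ranks of wildtype 1, wildtype 2 and both arrays labelled shSLY correlated at 0.936 to 0.944 with each other, against 0.882 to 0.915 for any other pair, so a fit in which wildtype 2 joins the slide of wildtype 1 was added after these values were seen and is called the joined-slide fit. Round spermatid markers passed detection for 10 of 12 genes, with log2 medians of -0.02 and 0.01 for the labelled shSLX and shSLY differences and no gene past the threshold. In such bulk samples, fewer cells of a type and less RNA per cell cannot be told apart.

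Detection set linker genes apart from core genes among the replication-dependent histones. Over all named genes, 9451 of 19057 were tested. Among replication-dependent genes, 39 of 57 were tested: 12 of 16 H2A genes, 9 of 14 H2B genes, 7 of 9 H3 genes, 11 of 13 H4 genes and 0 of 5 H1 genes. Those 5 linker genes, H1f1 to H1f5, encode the somatic H1 subtypes, and 4 of them were detected in 0 of the 8 columns and H1f2 in 1. Of 10 replication-independent genes 8 were tested, and of 14 germ cell genes 11. Detection in all 8 columns was reached by 52 histone genes. Columns of detection are those of the second table, and its shSLX columns match none of the arrays whose signals are given here.

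**Figure D1:**
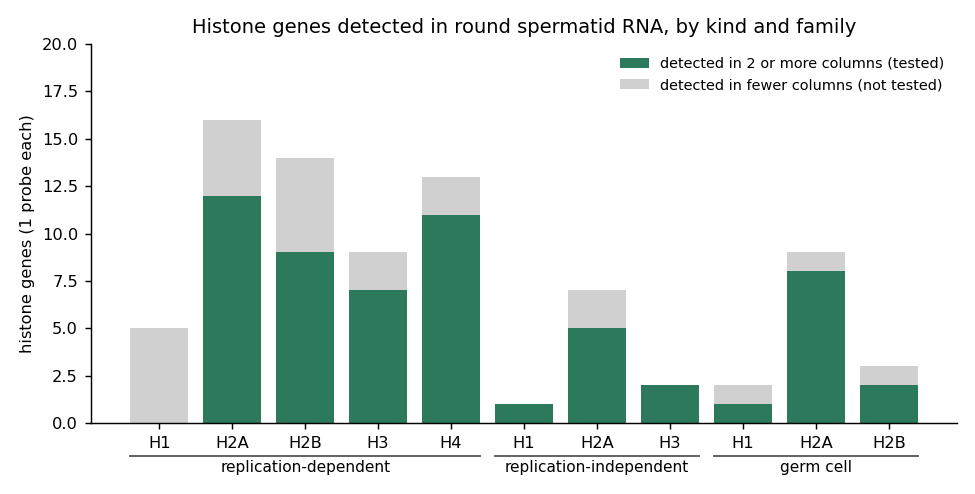
Histone genes on the array by kind and family (x axis), counted with 1 probe per gene (y axis). Green bars are genes detected in at least 2 of 8 columns and grey bars the rest. All 5 replication-dependent H1 genes are grey, while 11 of 13 H4 genes and 12 of 16 replication-dependent H2A genes are green.

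Histones that mark earlier male germ cells were near or below detection. H2bc1, the testis H2B (TH2B) laid down in spermatocytes, was detected in 0 columns, and H2ac1, its testis H2A partner (TH2A), in 2. H1f6, the testis linker histone H1t of pachytene spermatocytes, was detected in 6 columns, with signals between 6.41 and 6.77 on all 8 arrays. The oocyte linker histone gene H1f8 was detected in 0 columns. The probes of H2aj, Macroh2a3 and the X-linked H2ab2, which encodes the short variant H2A.B, were also at 0 columns.

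Most germ cell variants of H2A and H2B were detected in every column. Short H2A variants lack part of the C-terminal tail of canonical H2A, and H2A.L.2, the product of H2al2a, enters nucleosomes late in spermatid life and takes part in the replacement of histones by transition proteins in the mouse. The H2al1 genes are close X-linked copies, so their probes may bind transcripts of one another. Signals in the 4 wildtype arrays ran from 13.9 to 14.21 for H2al1e, from 12.95 to 13.3 for H2al1m, from 12.53 to 12.88 for H2al1n and from 10.34 to 10.77 for the chromosome 2 gene H2al2a. All 6 detected X-linked genes (H2al1e, H2al1m, H2al1n, H2al3, H2ap, H2bfm), the Y-linked H2al2c and H2bl1, a chromosome 13 gene for a testis H2B-like protein, passed detection in 8 columns.

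Because H2al2a and its X-linked relatives differed between the arrays below, their promoters are shown together. The windows run from 250 bases before to 50 after the transcript start in RefSeq (GRCm38.p6), at chr2:17996909-17997208 (minus strand) for H2al2a and chrX:14210898-14211197 (plus strand) for H2al1n. Capitals mark aligned runs of at least 20 identical bases.
H2al2a: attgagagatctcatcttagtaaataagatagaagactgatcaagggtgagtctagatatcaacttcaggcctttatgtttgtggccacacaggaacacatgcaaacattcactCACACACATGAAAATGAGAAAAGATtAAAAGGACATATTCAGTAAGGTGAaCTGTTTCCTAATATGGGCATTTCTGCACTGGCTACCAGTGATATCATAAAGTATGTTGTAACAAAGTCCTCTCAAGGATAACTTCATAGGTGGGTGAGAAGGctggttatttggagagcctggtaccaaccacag
H2al1n: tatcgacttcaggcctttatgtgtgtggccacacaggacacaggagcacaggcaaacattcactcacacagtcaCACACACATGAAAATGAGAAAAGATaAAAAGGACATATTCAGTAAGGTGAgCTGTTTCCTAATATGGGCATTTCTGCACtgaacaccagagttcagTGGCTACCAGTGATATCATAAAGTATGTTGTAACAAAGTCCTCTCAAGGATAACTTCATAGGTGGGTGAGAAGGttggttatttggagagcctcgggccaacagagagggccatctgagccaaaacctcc
Over 272 aligned columns, 228 bases were identical (83.8%), with a longest shared run of 74 bases. The H2al1n window shared 97.6% of its aligned bases with that of H2al1e and 94.8% with that of H2al1m. The window of the X-linked H2al3 aligned with that of H2al2a over 51 columns only, at 76.5% identity and with a longest shared run of 8 bases. The array values of H2al2a and the H2al1 copies, given next, differed in which arrays were high.

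H2al2a was the 1 histone gene past the threshold in the arrays labelled shSLX. Its log2 signals were 10.77, 10.68, 10.34 and 10.4 in wildtype 1 to 4, 11.03 and 10.94 in the arrays labelled shSLX, and 10.56 and 10.62 in the arrays labelled shSLY. Both arrays labelled shSLX lay above all 4 wildtype arrays, and the arrays labelled shSLY lay within the wildtype range. H2al2a rose by 0.61 ± 0.10 (SE) on the log2 scale in the arrays labelled shSLX (adjusted p = 0.0144, limma with Benjamini-Hochberg adjustment over 16572 probes, threshold 0.05). Of all genes tested, 2.8% passed the threshold in this comparison, so 1 of 58 histone genes is no more than that background. The call rests on both wildtype arrays of its slide, since limma's adjusted p was 0.206 without wildtype 3 and 0.155 without wildtype 4. It was also lost without a slide term (0.44, adjusted p = 0.12, limma), where wildtype 1 and 2, which read higher, enter the comparison.

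H2bl1 had the next lowest adjusted p among histone genes in that comparison. Its signals were 13.56, 13.49, 13.23 and 13.34 in wildtype 1 to 4, 13.7 and 13.66 in the arrays labelled shSLX, and 13.44 and 13.49 in those labelled shSLY. Again the arrays labelled shSLX were above every wildtype array, here with a difference of 0.39 ± 0.10 (adjusted p = 0.0913, limma) that passed in the joined-slide fit (adjusted p = 0.0442, limma). In the same arrays 3 of 4 tested stroma markers (of 7 listed) rose, among them Dcn, a matrix proteoglycan gene (1.18 ± 0.12, adjusted p = 0.00213, limma), and 3 of 4 tested immune markers (of 8 listed). Summed intensity of the 4 stroma markers was 974 to 984 in the arrays labelled shSLX, 705 to 840 in those labelled shSLY and 447 to 716 in wildtype, with Col1a1, Col1a2 and Col3a1 not detected. For the 4 immune markers the sum was 817 to 1030, 1061 to 1229 and 484 to 1123, with C1qa, Ptprc and Cd74 not detected. The part of these cells in the histone values was not tested.

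Families of replication-dependent genes had median log2 differences on both sides of 0 in the arrays labelled shSLX. They were 0.23 for 12 H2A genes, -0.02 for 9 H2B genes, -0.34 for 7 H3 genes and -0.09 for 11 H4 genes. H2ac24, H2ac7, H2ac12, H2ac15 and H2ac22 were between 0.87 and 1.16. Over all 39 the median was -0.06, against -0.01 over all 9451 genes, and 14 of 39 were above 0, against 48.1% of all genes. None of the 39 passed the threshold with slide fitted. The H2A genes H2ac7 (1.13, adjusted p = 0.0365, limma) and H2ac12 (1.05, adjusted p = 0.0356, limma) passed on the slide of these arrays alone. At an unadjusted p under 0.05 there were 12 of 39 in limma's fit, against 18.2% of all genes. Of all 58 histone genes, 10 lay below all 4 wildtype arrays in both arrays labelled shSLX (13.3% of all genes did) and 4 lay above (12.6%). Among the 7 H3 genes 4, H3c1, H3c4, H3c6 and H3c7, lay below every wildtype array.

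**Figure D2:**
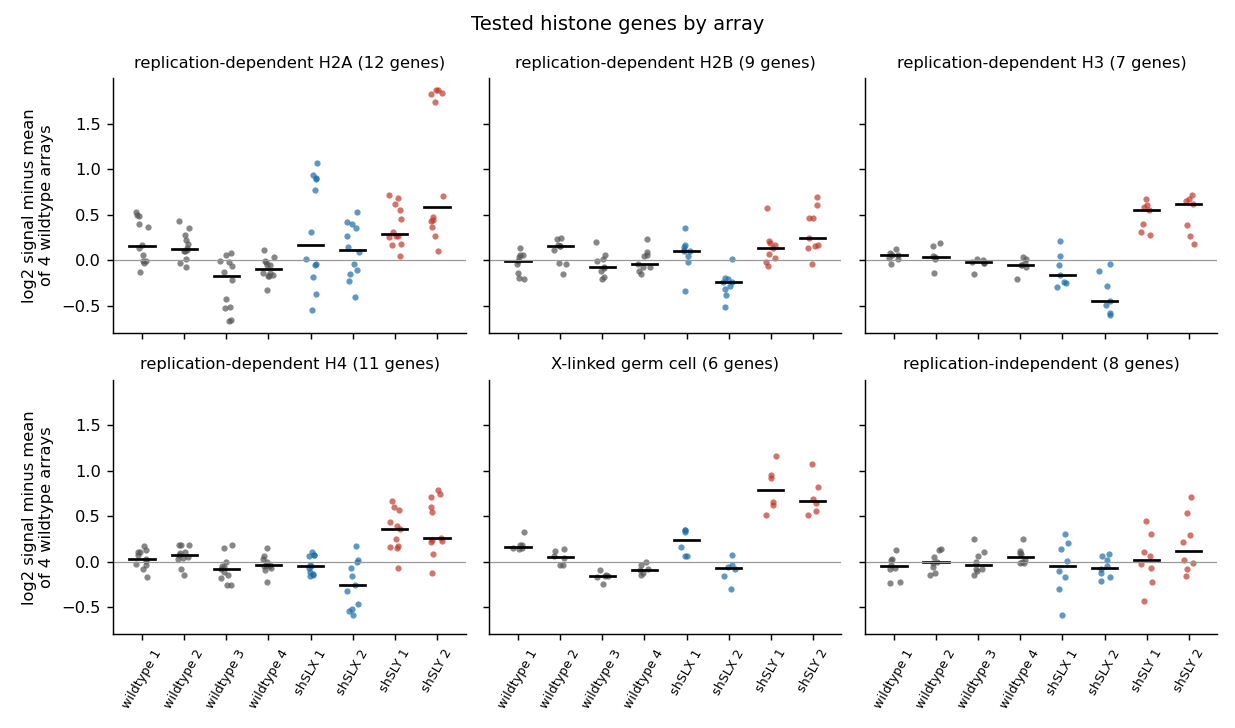
Log2 signal of each tested histone gene minus its mean over the 4 wildtype arrays (y axis), by array (x axis), in 6 classes of genes. Points are genes and black bars are class medians. In the arrays labelled shSLY all 7 replication-dependent H3 genes and all 6 X-linked genes lie above all 4 of their wildtype values, while H3 medians of the arrays labelled shSLX lie below 0.

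In the arrays labelled shSLY most histone genes read above wildtype. No histone gene passed the threshold with slide fitted, against 0.656% of all genes, while 25 of 58 reached an unadjusted p under 0.05 in the same limma fit, against 9.7% of all genes. The median difference was 0.34, against -0.01 over all genes, and 53 of 58 were above 0, against 47.2%. Both arrays labelled shSLY lay above all 4 wildtype arrays for 39 of 58 histone genes, against 16.7% of all genes, and below them for 0, against 19.6%. Histone copies are nearly identical within a family and share probes and arrays, so these genes are not independent of each other.

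The number of histone calls in the arrays labelled shSLY turned on how slides were handled. The joined-slide fit called 14 of 58 higher, with 2.26% of all genes called higher, and 0 lower, against 1.34%. Without a slide term 16 were called higher, against 2.52% of all genes. Without wildtype 1 the joined-slide fit kept 2 calls, H2al3 and H3c6, with differences of 1.15 (0.97 with wildtype 1) and 0.75 (0.62 with it). Without wildtype 2 the joined-slide fit is the same as the fit with slide and called 0. The 14 were the 6 X-linked genes, the Y-linked H2al2c, the H3 genes H3c1, H3c4, H3c6 and H3c7, H4c11, H2bc21 and H1f10.

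Replication-dependent core histone genes read above wildtype in the arrays labelled shSLY in every family. All 39 tested genes had a difference above 0 with slide fitted, with a median of 0.35 and a range of 0.02 to 0.82. For the 35 detected in all 8 columns, 35 were above 0 with slide fitted, 34 in the joined-slide fit and 33 without a slide term. Of all genes tested, 47.2%, 45.7% and 48.7% were above 0 in the same fits. Family medians were 0.39 for 12 H2A genes, 0.16 for 9 H2B genes, 0.49 for 7 H3 genes and 0.27 for 11 H4 genes. Above all 4 wildtype arrays in both arrays labelled shSLY stood 10 of 12 H2A, 3 of 9 H2B, 7 of 7 H3 and 9 of 11 H4 genes. Of all genes tested 16.7% did. The 282 other chromosome 13 genes tested had a median of -0.04, against 0.34 for the 35 tested histone genes of that chromosome, and this difference was not tested.

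H3c1, a cluster gene for canonical H3, showed the pattern most clearly. Its signals were 9.51, 9.52, 9.5 and 9.43 in wildtype 1 to 4, 9.24 and 9 in the arrays labelled shSLX, and 10.16 and 10.21 in the arrays labelled shSLY. The 3 groups do not overlap, with the arrays labelled shSLX lowest and those labelled shSLY highest. The share of all genes in this order was not counted, here or for the genes below that show it. The difference from wildtype was 0.68 ± 0.14 in the arrays labelled shSLY (adjusted p = 0.0835, limma; 0.00646 in the joined-slide fit) and -0.34 ± 0.11 in those labelled shSLX (adjusted p = 0.179, limma).

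H3c6, another canonical H3 gene, had signals of 10.32, 10.06, 10.17 and 10.23 in wildtype 1 to 4, 9.9 and 9.75 in the arrays labelled shSLX and 10.78 and 10.85 in the arrays labelled shSLY. Here too the groups stand apart in the same order. Its promoter window is shown as an example of a replication-dependent gene, at chr13:23562336-23562635 (minus strand, RefSeq, GRCm38.p6), with capitals for CCAAT on either strand.
H3c6: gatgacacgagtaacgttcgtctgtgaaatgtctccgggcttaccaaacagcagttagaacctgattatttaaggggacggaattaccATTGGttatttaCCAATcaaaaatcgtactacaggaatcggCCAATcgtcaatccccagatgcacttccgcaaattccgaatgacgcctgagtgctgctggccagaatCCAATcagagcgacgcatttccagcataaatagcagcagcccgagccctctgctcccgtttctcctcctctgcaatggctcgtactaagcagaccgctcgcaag
The CCAAT box is the sequence bound by the factor NF-Y. It was found in 42 of 51 replication-dependent windows (82.4%), against 37.9% of 27025 windows of all genes. It was in every H2A, H2B and H3 window and in 3 of 12 H4 windows. TATAAA was found in 58.8% of replication-dependent windows, against 14.2% of all, and ATTTGCAT, an octamer motif of OCT factors in its exact form, in 21.6%, against 1.75%. TATAAA was in 62.5% of H2A, 54.5% of H2B, 28.6% of H3 and 66.7% of H4 windows. ATTTGCAT was in 37.5% of H2A and 45.5% of H2B windows, and in 0 of 7 H3 and 0 of 12 H4 windows. In the 35 windows of tested replication-dependent genes, CCAAT was in 74.3%, TATAAA in 54.3% and ATTTGCAT in 11.4%. Both strands were searched and none of these motifs contains another. A match describes the letters of the window only.

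Other replication-dependent genes called in the joined-slide fit were chosen by that count. The remaining H3 genes among them showed the same order of arrays. H3c4 read 10.09, 10.09, 10.08 and 10.05 in wildtype, 9.84 and 9.48 in the arrays labelled shSLX, and 10.63 and 10.7 in those labelled shSLY. H3c7 read 9.66, 9.63, 9.59 and 9.56, then 9.45 and 9.03, then 10.21 and 10.28. As in H3c1 and H3c6, the wildtype arrays lay between both labelled groups without overlap, and canonical H3 copies may share probe binding. H3c4 and H3c7 were chosen by a call in the arrays labelled shSLY, so a position above wildtype there was part of the choice. The H2B gene H2bc21 of chromosome 3 read 8.77, 8.88, 8.43 and 8.49 in wildtype, 8.3 and 8.12 in the arrays labelled shSLX, and 9.21 and 9.33 in those labelled shSLY, again without overlap. Those are values of the probe used. The other tested H2bc21 probe had a difference of 0.15 in the arrays labelled shSLY, against 0.5 for the probe used. H4c11, an H4 gene, read 9.51, 9.51, 9.78 and 9.55, then 9.66 and 9.33, then 10.03 and 10.14, so its arrays labelled shSLX were not apart from wildtype, while those labelled shSLY were above it.

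The difference between both effects was past the threshold for 3 histone genes, against 1.94% of all genes. It was -1.02 ± 0.18 for H3c1 (adjusted p = 0.0309, limma) and -0.87 ± 0.16 for H3c6 (adjusted p = 0.0404, limma), where a negative value means a lower effect in the arrays labelled shSLX. For H2al2a it was 0.79 ± 0.16 in the opposite direction (adjusted p = 0.0443, limma). H3c4 lay just outside (-0.98 ± 0.20, adjusted p = 0.0556, limma), followed by H2bc21 (-0.75 ± 0.17, 0.0779) and H3c7 (-0.93 ± 0.22, 0.0865). The other tested probe of H2bc21 had -0.36 (adjusted p = 0.407, limma). Each of the 3 calls was lost without wildtype 3, without wildtype 4 or without either array labelled shSLY, with limma's adjusted p between 0.126 and 0.242. In those 4 fits the difference ran from -1.05 to -0.99 for H3c1, from -0.90 to -0.83 for H3c6 and from 0.76 to 0.82 for H2al2a. With slide fitted, both effects rest on different slides and wildtype arrays and share only the estimate of the spread. The values are set side by side without a correlation.

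**Figure D3:**
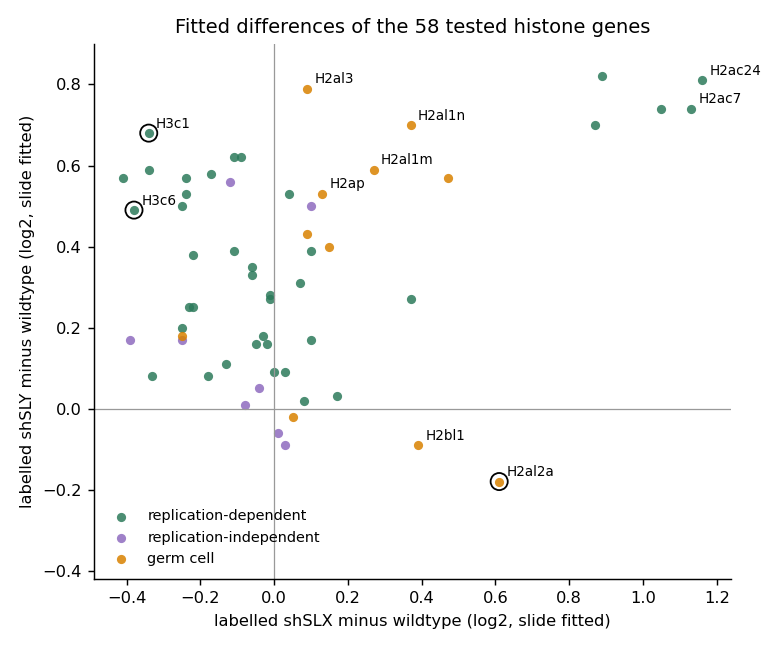
Fitted log2 difference from wildtype of the arrays labelled shSLX (x axis) and shSLY (y axis) for 58 tested histone genes, coloured by kind. Black circles mark genes past the threshold in the comparison of the arrays labelled shSLX or in the difference between effects: H2al2a at the lower right and H3c1 and H3c6 at the upper left. Most points lie above the horizontal line.

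X-linked histone genes were high in the arrays labelled shSLY together with the rest of the X chromosome. H2al1n read 12.88, 12.84, 12.53 and 12.56 in wildtype 1 to 4, 13.05 and 12.78 in the arrays labelled shSLX, and 13.65 and 13.52 in the arrays labelled shSLY. H2al3 read 11.54, 11.18, 10.97 and 11.13, then 11.37 and 10.91, then 12.37 and 12.29 in the same order. For both genes the arrays labelled shSLY were above every other array, and the arrays labelled shSLX overlapped wildtype. Differences were 0.70 ± 0.15 (adjusted p = 0.0893, limma; 0.00638 in the joined-slide fit) for H2al1n and 0.79 ± 0.18 (adjusted p = 0.13, limma; 0.00964 in the joined-slide fit) for H2al3. H2al1m read 13.3, 13.17, 12.95 and 13.02 in wildtype, 13.46 and 13.05 in the arrays labelled shSLX and 14.03 and 13.76 in those labelled shSLY. H2ap, a short H2A variant gene that was once also called H2al3, read 12.06, 11.87, 11.82 and 11.91, then 12.24 and 11.75, then 12.57 and 12.6. In these genes the first array labelled shSLX was above every wildtype array and the second was not. H2al1e read 14.69 and 14.58 and the H2B gene H2bfm 7.5 and 7.55 in the arrays labelled shSLY, against at most 14.21 and 7.13 in wildtype. These 4 genes had differences of 0.40 to 0.59 for the probes used. The other tested probe of H2al1e had 1.01 in the arrays labelled shSLY (adjusted p = 0.0784, limma), against 0.43 for the probe used. All 6 lay above all 4 wildtype arrays, as did 206 of the 263 X-linked genes tested. The median was 0.56 for the 6 and 0.42 for the 263 X-linked genes, so a high reading in these arrays was not particular to X-linked histones.

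The 4 tested autosomal germ cell genes, H2al2a, H2bl1, H1f6 and H2ac1, had a median of -0.06 in the arrays labelled shSLY, with 0 of 4 above all wildtype arrays. The Y-linked germ cell gene H2al2c read 6.84, 6.85, 6.64 and 6.68 in wildtype, 7.22 and 7.03 in the arrays labelled shSLX and 7.56 and 7.26 in those labelled shSLY. All 4 arrays with a transgene were above all wildtype arrays for this gene, with differences of 0.47 ± 0.13 (adjusted p = 0.115, limma) and 0.57 ± 0.16 (adjusted p = 0.205, limma). The second value lies beside the X-linked genes, and the 16 Y-linked genes tested had a median of 0.51 in the arrays labelled shSLY, with 12 of 16 above all wildtype arrays. Across the 51 autosomal histone genes the median was 0.27, against -0.02 over the 9137 autosomal genes tested. Above all 4 wildtype arrays were 32 of the 51, against 1354 of the 9137.

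**Figure D4:**
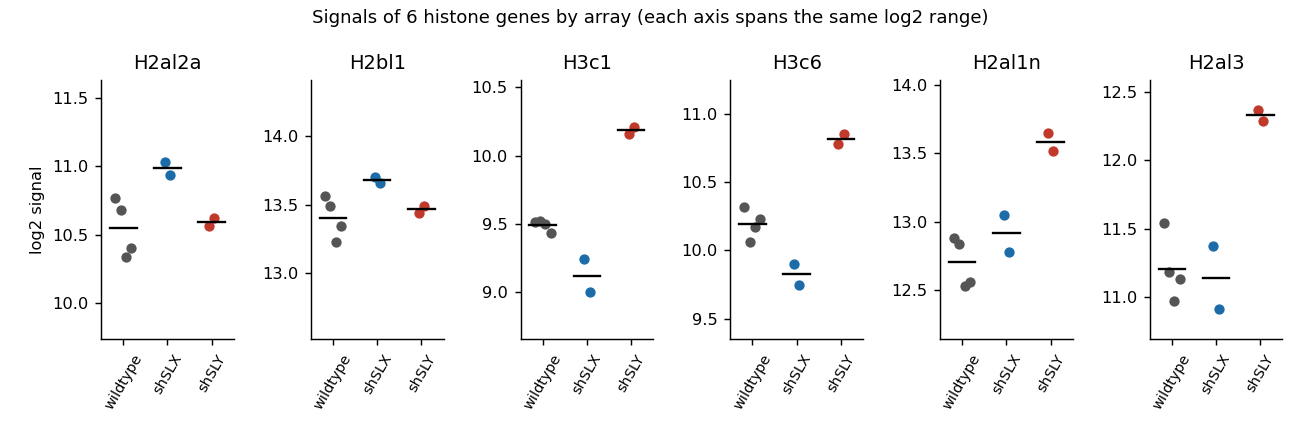
Log2 signal (y axis) of 6 histone genes on each array, by group (x axis), with black bars at group means and the same span of log2 units on every axis. H2al2a and H2bl1 are highest in the arrays labelled shSLX, and H3c1, H3c6, H2al1n and H2al3 are highest in the arrays labelled shSLY.

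A set of H2A cluster genes had wide ranges over the 8 arrays, with arrays of 1 group far apart. H2ac24, a canonical H2A gene of the chromosome 13 cluster, read 10.67, 10.53, 9.52 and 10.01 in wildtype 1 to 4, 11.25 and 10.6 in the arrays labelled shSLX, and 10.9 and 12.05 in the arrays labelled shSLY. H2ac7, in the same cluster, read 10.43, 10.18, 9.23 and 9.76, then 10.83 and 10.43, then 10.58 and 11.77. In both genes the second array labelled shSLY stood far above the first and wildtype 3 was lowest. Ranges over 8 arrays were 2.54 for H2ac24, 2.53 for H2ac7, 2.36 for H2ac12 and H2ac15, and 2.17 for H2ac22, against a median range of 0.5 over all genes and 0.72 over tested histone genes. H2ac11, added after its values were seen, had the same highest and lowest arrays with a range of 0.92. H2ac21 had them too, with a range of 0.51. H2ac10, H2ac13, H2ac19 and H2ac20 were also highest in shSLY 2, and lowest in an array labelled shSLX. The set is thus marked by the width of its ranges. Differences for H2ac24 were 1.16 ± 0.35 (adjusted p = 0.153, limma) in the arrays labelled shSLX and 0.81 ± 0.43 (adjusted p = 0.684, limma) in those labelled shSLY, with standard errors larger than for any histone gene outside this set.

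The promoter of H2ac7 shows the crowded motifs of such a cluster gene, at chr13:23574131-23574430 (plus strand, RefSeq, GRCm38.p6), with capitals for CCAAT and TATAAA on either strand.
H2ac7: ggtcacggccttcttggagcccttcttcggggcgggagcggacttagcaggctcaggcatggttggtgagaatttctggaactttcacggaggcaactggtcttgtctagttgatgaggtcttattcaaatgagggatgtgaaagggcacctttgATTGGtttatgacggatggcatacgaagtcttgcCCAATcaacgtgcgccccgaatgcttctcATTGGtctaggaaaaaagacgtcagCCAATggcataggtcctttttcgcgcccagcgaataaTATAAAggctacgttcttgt
Over 205 aligned columns, the windows of H2ac7 and H2ac24 were identical at 168 bases (82%). Alignment with the others of the set gave 43 columns for H2ac12 (69.8% identical), 46 for H2ac15 (93.5%) and 208 for H2ac22 (66.8%). The remaining 6 replication-dependent H2A genes, among them H2ac10, H2ac18 and H2ac19, had ranges of 0.81 or less for the probe used. With that probe H2ac10 read 13.79, 13.83, 13.72 and 13.59 in wildtype, 13.36 and 13.5 in the arrays labelled shSLX, and 13.99 and 14.09 in those labelled shSLY, in the same order of groups as the H3 genes. This order depends on the probe. The other probe of H2ac10 had differences of 1.08 and 0.80 in the arrays labelled shSLX and shSLY, against -0.23 and 0.25 for the probe used. The other probe of H2ac13 had 1.10 and 0.82, against -0.06 and 0.35. Near-identical H2A transcripts may share probes.

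**Figure D5:**
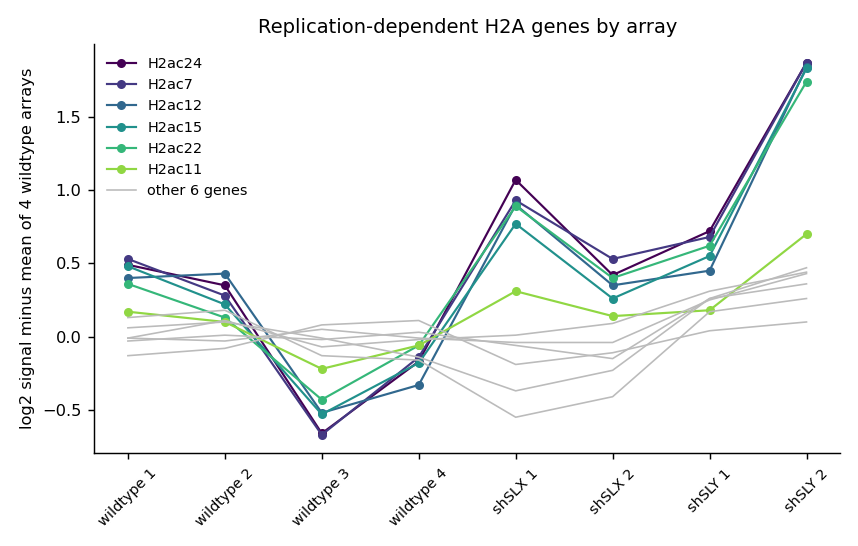
Log2 signal minus the mean of the 4 wildtype arrays (y axis) for the 12 tested replication-dependent H2A genes on each array (x axis). Lines join the values of 1 gene and arrays have no order. The coloured genes are lowest in wildtype 3 and highest in shSLY 2, as is the grey H2ac21. The grey genes stay within a narrower range.

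No replication-independent variant passed the threshold with slide fitted. H3f3a, which encodes H3.3, read 12.57, 12.7, 12.71 and 12.64 in wildtype, 12.66 and 12.6 in the arrays labelled shSLX, and 12.58 and 12.67 in those labelled shSLY, so every array lay within the wildtype range. H3f3b, the other H3.3 gene, read 9.07, 9.28, 9.06 and 9.16, then 9.35 and 9.06, then 9.45 and 9.68. There the arrays labelled shSLY were above all wildtype arrays, with a difference of 0.50 ± 0.16 (adjusted p = 0.318, limma). H1f10, the gene of the linker variant H1X, read 8.53, 8.5, 8.43 and 8.6, then 8.21 and 8.57, then 8.96 and 9.22. It had a difference of 0.56 ± 0.18 in the same arrays (adjusted p = 0.304, limma; 0.0494 in the joined-slide fit).

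H2ax, whose product is phosphorylated at DNA breaks and on the sex chromosomes in meiosis, read 8.75, 8.72, 8.72 and 8.71 in wildtype, 8.14 and 8.51 in the arrays labelled shSLX, and 8.83 and 9.01 in those labelled shSLY. The arrays labelled shSLX were below and those labelled shSLY above all wildtype arrays, with differences of -0.39 ± 0.14 (adjusted p = 0.198, limma) and 0.17 ± 0.17 (adjusted p = 0.889, limma). The H2A.Z genes H2az1 and H2az2 and the macroH2A genes Macroh2a1 and Macroh2a2 had differences between -0.25 and 0.17 in both comparisons. The class median was -0.06 in the arrays labelled shSLX and 0.11 in those labelled shSLY over the 8 tested genes.

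Genes that make, carry or remove histones were tested beside them, and none passed the threshold with slide fitted. Of 24 listed genes for histone mRNA processing and histone gene transcription, 13 were tested and the medians were -0.03 in both comparisons. Slbp, which binds the stem-loop of replication-dependent histone mRNAs, and Npat, a coactivator of histone genes, were detected in 0 columns. Of 31 histone chaperones and exchange factors 22 were tested, with medians of -0.09 and 0.07, and of 30 genes of the histone-to-protamine exchange 23 were tested, with medians of 0.00 and 0.04. The joined-slide fit called 1 gene of each list in the arrays labelled shSLY, higher for processing and transcription and for the protamine exchange and lower for chaperones, and so did the fit without a slide term. Of all genes tested, 2.26% were called higher and 1.34% lower in the joined-slide fit, and 2.52% and 1.51% without a slide term. With 13 to 23 genes tested per list, 1 call is too few to set against these shares.

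Markers of cells that replicate DNA were followed beside the replication-dependent histones. Of 17 listed S phase and spermatogonia markers 11 were tested, with medians of 0.10 and 0.13 for the labelled shSLX and shSLY differences. Sohlh1, a transcription factor of spermatogonia, rose in the arrays labelled shSLX (0.73 ± 0.11, adjusted p = 0.0121, limma), and none passed in those labelled shSLY. Summed intensity of the 11 markers was 2198 to 2549 in wildtype, 2471 to 2541 in the arrays labelled shSLX and 2399 to 2770 in those labelled shSLY, and Pcna, Ccna2, Stra8, Zbtb16 and Dmrt1 did not pass the detection filter. Pachytene spermatocyte markers, 5 of 7 tested, summed to 5999 to 7091, 5807 to 8126 and 5550 to 5615 in the same order, with Sycp3 and Hormad1 not detected. Sertoli markers, 6 of 10 tested, summed to 1068 to 1098 in the arrays labelled shSLY and 717 to 1067 in wildtype, and Insl3, the 1 Leydig marker tested (of 5 listed), to 264 to 308 and 160 to 201. Their part in the histone values was not tested.

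Genes with several probes limit the reading of single members. Of 18 histone genes with more than 1 tested probe, all probes lay on the same side of 0 for 11 in the arrays labelled shSLX and 12 in those labelled shSLY. Macroh2a1 and H4c8 had probes on opposite sides in both comparisons. H2ac10, H2ac13, H2al1e, H3c10 and H3c14 had them so in the arrays labelled shSLX alone, and H2ac18, H2bc12, H3f3a and H4c2 in those labelled shSLY alone. H2al2a, H3c1 and H3c6 have a single probe each, so their values have no second probe beside them.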

How the data were processed

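Total RNA of round spermatids was measured on 8 Illumina mouse bead arrays. Linear probe intensity is the unit of both deposited tables, and per the file headers the non-normalized one adds a detection p-value to every intensity. The series matrix intensity values were deposited already normalized, with the same minimum (46.4) and maximum (42689) on all arrays. The submitters' processing notes name BeadStudio and GenomeStudio. The labelling kit named in the labels, TotalPrep, primes with oligo(dT), so transcripts without a poly(A) tail are measured poorly and levels of replication-dependent histones are those of the primed forms.

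Series matrix values were corrected with normexp (offset 50), then quantile-normalized, and log2 was taken. Probes with a detection p-value under 0.01 in at least 2 of 8 columns were kept (16572). These columns are those of the non-normalized table. By ranks, its shSLX columns match none of the arrays used, and wildtype 3 and 4 have no matching column there. Counts of columns are therefore not counts over the arrays whose signals are given. Group and slide were fitted with lmFit and eBayes (limma 3.58.1, R 4.3.3; 3 residual and 5.69 prior degrees of freedom). Every adjusted p is limma's, by Benjamini-Hochberg over all kept probes, threshold 0.05. The number of arrays limits the precision. Log2 signals of any 2 arrays correlated at 0.973 or more. Scripts were tested on simulated data.

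Array labels gave the slides, and the same labels head the non-normalized columns, so the slides share the dispute over names. By ranks, the non-normalized headers wildtype 3 and 4 belong to the series matrix columns of shSLY 1 and 2, the headers shSLY 1 and 2 to those of shSLX 1 and 2, and the shSLX headers to no series matrix column (best Spearman correlations 0.893 and 0.916). No label or header settles which names are right.

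Named are members past the threshold in any comparison, the 5 with the largest difference in each, the 5 with the highest wildtype signal, X-linked members, and germ cell and replication-independent histones. Others are named where a count turns on them. Members and lists were chosen with earlier results of these data known. Promoter windows came from a RefSeq table (GRCm38.p6) that matched 73 of the 81 members. Replicate numbers were tested for pairing and did not meet the rule for it. Alternatives changed the slide term, offset, background, normalization, filter, probe choice, source table, variance prior and arrays used.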

Additional observations from a re-analysis of the deposited data

Results flagged for a closer look

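Of 58 tested histone genes, 2 had a wildtype array far from the other 3, measured as a gap over the range above Dixon's critical value. Chance alone gives about 1 in 20 such groups. H4c11 read 9.78 in wildtype 3 and between 9.51 and 9.55 in the other wildtype arrays. H2ax read 8.75 in wildtype 1 and between 8.71 and 8.72 in the others, a gap that is small on the log2 scale.

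A test of the difference between both effects picked out 3 genes in limma's fit. H2al2a had a higher effect in the arrays labelled shSLX, by 0.79. H3c1 and H3c6 had a lower effect there, with differences of -1.02 and -0.87. In the fit reported, all 3 were set against the wildtype arrays of the labelled slides, wildtype 1 and wildtype 3 and 4. All 3 passed in the joined-slide fit as well, and none passed with an offset of 16. Without a slide term, where 15.7% of all genes were called, H3c1 and H3c6 passed (adjusted p = 0.000495 and 0.000884, limma). H2al2a did not pass there (0.39, adjusted p = 0.101, limma).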

How the results depend on the processing

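The number of arrays and the dispute over their names limit every call. Histone genes called in the arrays labelled shSLX numbered 1 in the fit reported, 2 with joined slides or a trend and robust prior, 3 on their own slide, 0 with no slide term and 19 under the non-normalized headers. In those labelled shSLY they numbered 0 in the fit reported, 14 with joined slides, 2 with joined slides without wildtype 1, 16 with no slide term, 13 on their own slide, 11 with slide as a random block and 1 with a trend and robust prior. For the difference between effects they numbered 3 in the fit reported, 7 with joined slides and 24 with no slide term. They numbered 14 with slide as a random block, and 0 with an offset of 16 or under the non-normalized headers. Among all genes, the fit reported called 2.8% in the arrays labelled shSLX, 0.656% in those labelled shSLY and 1.94% for the difference. With joined slides these shares were 4.12%, 3.61% and 4.8%, and with no slide term 2.47%, 4.03% and 15.7%. Across these 3 fits the histone counts and the shares of all genes rose and fell together. Shares of all genes are not given for the other fits of this section. Their histone counts, large or small, have no such background beside them and are no result about histones. Replicate numbers did not pair the arrays (correlations of -0.08 to 0.22). With the replicate number as a block and no slide term, 3, 5 and 29 histone genes were called in the same order of comparisons. The medians of the difference between effects were then -0.465 over tested and -0.473 over replication-dependent members.

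Leaving out 1 array gave 0 to 9, 0 to 12 and 0 to 12 calls. Medians then ran from -0.125 to 0.072 for shSLX, from 0.247 to 0.42 for shSLY (replication-dependent 0.257 to 0.452), and from -0.399 to -0.228 for the difference (replication-dependent -0.458 to -0.281). Without wildtype 1, the shSLY and difference values could not be fitted with slide, and the difference has no fit on a single slide.

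By ranks, only wildtype 1 and 2 keep their names under the non-normalized headers. With those headers the shSLX median was -0.533, the shSLY median -0.057 (replication-dependent -0.076) and the median difference -0.421 (replication-dependent -0.45). There H2al1e (-0.80), H2al1n (-0.90), H2al3 (-1.36) and H2bfm (-1.06) fell in shSLX, and H2al2a turned to -0.22 for the difference. With no detection filter, which adds undetected genes, the shSLY median was 0.172 (replication-dependent 0.185) and that of the difference -0.204 for both sets. The median difference was -0.465 (replication-dependent -0.473) with no slide term. Over replication-dependent members it was -0.393 for those detected in all 8 columns and -0.383 with an offset of 16. Probes called over all alternatives ran from 43 to 2683 for shSLX, 5 to 635 for shSLY and 13 to 4383 for the difference. Other causes of these shifts were not tested.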
